A study of Homo sapiens with 4 samples.

Results

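BrdU peaks in gene deserts were the listed peaks on chromosomes 1 to 22 that overlapped no protein-coding or long non-coding RNA (lncRNA) gene and lay more than 100 kb, edge to edge, from every protein-coding gene of GENCODE release 44. They numbered 2942 of the 33295 listed peaks, or 8.99% of the 32710 autosomal ones. Joining overlapping peaks gave 2235 desert sites. The list came from BJ-hTERT cells, human foreskin fibroblasts immortalized with telomerase, which is a single line. The cells were starved of serum to stop in G0/G1, released into serum and labelled with the thymidine analogue BrdU shortly before harvest. Peaks had been called against Input DNA in BrdU-Seq at 16, 19, 22, 24 and 28 h after release, with 2 repeats of each time point, and then pooled into one list. The list gives only coordinates in genome build hg38, so that no time point, repeat, read depth or signal could be attached to a peak, and no replicate error exists for any value. The 4 ChIP-Seq samples of the series, RNAPII and PCNA at 14 and 16 h with 1 sample each, were not analysed here.

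Gene deserts are long stretches without coding genes. They are typically AT-rich, packed in compact chromatin and copied late in S-phase, and they include the sequence next to the centromeres, where blocks of satellite DNA repeat a short unit in tandem. A site where forks slow or pause in many cells is over-represented in BrdU-labelled DNA, which is how the study read a BrdU peak. In deserts no annotated coding transcription unit lies nearby, so the question was where such peaks lie far from coding genes and which sequences they cover. A further 1894 peaks lay as far from coding genes but over lncRNA genes, and these were not members. Immunoglobulin segments and pseudogenes are not protein-coding genes in the annotation, and 113 members (3.84%) overlapped some other annotated gene, mostly pseudogenes.

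Each peak was compared with 100 evenly spaced positions of the same width in its own desert, called placements below, and with the 8099 intergenic peaks that lay within 100 kb of a coding gene. Sign tests counted on how many of the 22 autosomes a difference went one way. They were exact and two-sided, and p-values were adjusted by Benjamini-Hochberg over 11 tests. Chromosomes are not experimental replicates, so these p-values say how general a difference was along the genome and nothing about repeat experiments. Neighbouring peaks share sequence and position, and binomial intervals cover counting error only.

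The sequences of a few members show what the peaks covered. They were read from hg38 on the plus strand. The first shown is the peak with the highest share of the pericentromeric GGAAT repeat, picked after the values were seen, from chr20:31052209-31052427 between ZNF337 and DEFB115. Capitals mark the pentamer GGAAT and its rotations GAATG and AATGG and also TGGAA on this strand.
Satellite peak on chromosome 20: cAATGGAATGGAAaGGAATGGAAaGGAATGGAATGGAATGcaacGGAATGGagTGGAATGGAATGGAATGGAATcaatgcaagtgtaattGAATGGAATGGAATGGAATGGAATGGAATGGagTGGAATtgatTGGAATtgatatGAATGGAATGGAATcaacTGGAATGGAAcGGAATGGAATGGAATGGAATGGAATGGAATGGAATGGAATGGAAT
The longest perfect short tandem repeat among the members considered for printing was a GGAAT run of 59 bp on chromosome 21, at chr21:7261111-7261410 (300 bp of a longer peak). Capitals mark the run.
Repeat tract on chromosome 21: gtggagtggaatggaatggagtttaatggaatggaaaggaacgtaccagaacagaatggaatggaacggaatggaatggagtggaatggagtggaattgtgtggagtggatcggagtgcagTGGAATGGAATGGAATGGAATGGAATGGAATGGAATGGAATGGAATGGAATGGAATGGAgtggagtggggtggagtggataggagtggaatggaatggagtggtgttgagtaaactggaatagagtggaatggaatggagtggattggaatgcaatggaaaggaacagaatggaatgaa
Among the same members the longest run of another unit was 51 bp of a 4-base repeat on chromosome 14, 118 kb from KIF26A, at chr14:104299060-104299359.
Repeat tract on chromosome 14: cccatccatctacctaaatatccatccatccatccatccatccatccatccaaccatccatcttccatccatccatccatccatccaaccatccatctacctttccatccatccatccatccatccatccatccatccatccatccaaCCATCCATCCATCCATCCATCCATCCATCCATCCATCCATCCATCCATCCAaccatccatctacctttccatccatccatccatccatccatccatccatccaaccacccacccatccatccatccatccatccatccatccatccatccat
Of their best-matching arrays, 3 of different unit length are shown, with units of 40, 58 and 79 bp. They are printed with alternate copies in capitals, from chr4:131202022-131202286, chr3:876391-876631 and chr4:189400238-189400475.
Array of a 40-bp unit: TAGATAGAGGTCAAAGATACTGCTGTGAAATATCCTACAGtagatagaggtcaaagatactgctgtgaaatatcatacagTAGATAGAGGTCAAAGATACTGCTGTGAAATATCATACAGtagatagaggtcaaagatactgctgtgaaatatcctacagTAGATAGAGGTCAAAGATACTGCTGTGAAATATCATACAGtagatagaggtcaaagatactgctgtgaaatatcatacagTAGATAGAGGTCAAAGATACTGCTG
Array of a 58-bp unit: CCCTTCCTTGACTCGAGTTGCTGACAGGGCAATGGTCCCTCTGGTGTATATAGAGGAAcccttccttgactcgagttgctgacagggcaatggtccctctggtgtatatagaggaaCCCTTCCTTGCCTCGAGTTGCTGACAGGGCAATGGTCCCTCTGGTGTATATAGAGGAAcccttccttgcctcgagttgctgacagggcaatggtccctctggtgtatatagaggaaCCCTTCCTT
Array of a 79-bp unit: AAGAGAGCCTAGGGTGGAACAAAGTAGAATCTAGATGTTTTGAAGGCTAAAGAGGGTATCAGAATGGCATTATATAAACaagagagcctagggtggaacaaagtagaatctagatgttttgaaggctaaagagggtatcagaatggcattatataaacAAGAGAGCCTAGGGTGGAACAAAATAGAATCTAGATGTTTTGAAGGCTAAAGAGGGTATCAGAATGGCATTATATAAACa
In 7 sites 5 listed peaks lay on one another. One of them, a site of 9 peaks in all, was on chromosome 15 between TLE3 and UACA. Its most repetitive peak, chr15:70303081-70303344, held diverged copies of a 35-bp unit, again shown in alternate case.
Deepest site, chromosome 15: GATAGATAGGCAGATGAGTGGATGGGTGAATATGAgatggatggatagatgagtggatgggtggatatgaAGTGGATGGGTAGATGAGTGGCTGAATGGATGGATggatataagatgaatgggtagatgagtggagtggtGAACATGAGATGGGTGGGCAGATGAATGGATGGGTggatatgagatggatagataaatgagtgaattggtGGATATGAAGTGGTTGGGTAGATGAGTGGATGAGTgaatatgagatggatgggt
The AT content of members ran from 35.1% in an array of a 42-bp unit 632 kb from FRG1 (chr4:189308264-189308471) to 74.0% in a peak beside the centromere of chromosome 2 (chr2:91560445-91560675).
Lowest AT content: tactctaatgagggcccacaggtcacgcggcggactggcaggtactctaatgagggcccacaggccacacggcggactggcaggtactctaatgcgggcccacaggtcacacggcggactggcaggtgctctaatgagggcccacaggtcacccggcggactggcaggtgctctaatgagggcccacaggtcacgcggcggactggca
Highest AT content: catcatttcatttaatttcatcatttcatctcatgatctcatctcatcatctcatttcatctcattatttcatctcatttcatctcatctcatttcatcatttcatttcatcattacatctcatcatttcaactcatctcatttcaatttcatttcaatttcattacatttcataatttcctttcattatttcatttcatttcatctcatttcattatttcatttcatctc
The member farthest from a coding gene lay 5444 kb from TPTE on the short arm of chromosome 21 (chr21:5077874-5078074). It was a tandem array too, with a called unit of 51 bp, though the first copies printed are shorter.
Farthest from a gene: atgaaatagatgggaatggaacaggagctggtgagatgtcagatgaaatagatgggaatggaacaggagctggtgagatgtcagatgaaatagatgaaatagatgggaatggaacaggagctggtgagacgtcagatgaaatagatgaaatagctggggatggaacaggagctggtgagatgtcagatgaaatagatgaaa

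In the list pooled over time points, BrdU peaks were sparse in gene deserts. The paper found more peaks at its earliest time point than at any other, whereas deserts are typically copied late. Whether this weighting of the list bears on the densities here, or on those by distance and AT content below, was not tested. No peak in the list carries a time point. Desert sequence made up 19.9% of the known autosomal sequence (547 Mb) and held 4.08 sites per Mb, against 10.4 sites per Mb in the remaining 2209 Mb. The remainder took in the lncRNA genes that lie inside deserts. With lncRNA genes not barred, the values were 4.76 and 10.9 sites per Mb. Density in deserts ran from 1.28 sites per Mb on chromosome 19 to 11.9 on chromosome 22, with a median of 4.15 over chromosomes, while the rest of the chromosomes ranged from 6.07 to 13.4. It was lower in deserts on 21 of the 22 autosomes (adjusted p = 6.03e-05, exact sign test). Chromosome 22 was the exception, with 11.9 sites per Mb in deserts and 11.2 outside. Chromosome 21 came next, with 11.1 against 11.3, and 31.5% of all its peaks lay in deserts. Chromosomes 3, 18 and 19 held the fewest, between 1.28 and 1.63 sites per Mb.

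**Figure D1:**
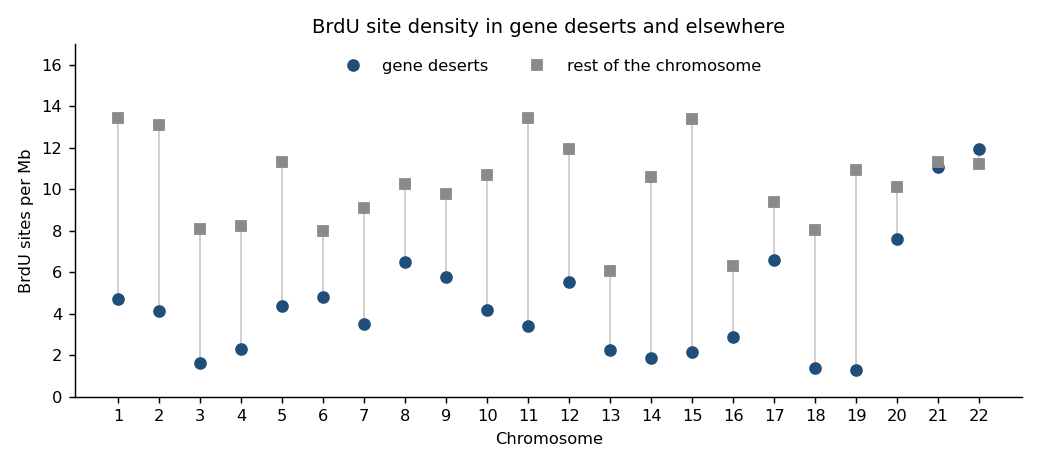
BrdU sites per Mb in gene deserts (circles) and in the rest of each chromosome (squares), for chromosomes 1 to 22. The circle lies below the square on every chromosome but 22, and the pair nearly meets on chromosome 21.

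Within deserts, sites were denser towards genes. From 100 to 150 kb from the nearest coding gene there were 9.23 sites per Mb, from 150 to 200 kb 6.20, from 200 to 300 kb 4.00 and from 300 to 500 kb 2.61. Beyond 1000 kb the density was 2.38 sites per Mb, and 1.63 once sequence within 5 Mb of a centromere was left out. This gradient mixes long and short deserts, which differ in other ways. Compared with placements in its own desert, a peak was closer to a gene on 16 of 22 chromosomes, with a median distance of 201 kb against 229 kb, and this did not pass the test (adjusted p = 0.082, exact sign test). The 270 intergenic peaks at 90 to 100 kb had a mean AT content of 59.0% and 13.3% tandem arrays, and the 240 members at 100 to 110 kb had 59.4% and 16.2%. The nearest peaks to the limit lay 99.9 kb away on chromosome 12 and 100.02 kb away on chromosome 2.

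The surroundings of the sites were divided by AT content in 100-kb windows of desert more than 5 Mb from centromeres. Windows were split by AT content into 4 equal classes of 1343. The class with the lowest AT content (up to 60.3%) held 7.24 sites per Mb, the next classes 5.25 and 3.07, and the class with the highest AT content (at least 64.6%) 1.08 sites per Mb. At least 1 site fell in 24.3% of windows of the lowest class and in 7.97% of the highest. A like difference appeared between deserts of a chromosome. The 50 kb to either side of a member averaged 59.1% AT, against 59.4% around placements in its own desert (lower on 15 of 22 chromosomes, adjusted p = 0.18, exact sign test), but when placements were spread over every desert of the chromosome the members' surroundings were 2.45 points lower in AT, on all 22 chromosomes (adjusted p = 2.62e-06, exact sign test).

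**Figure D2:**
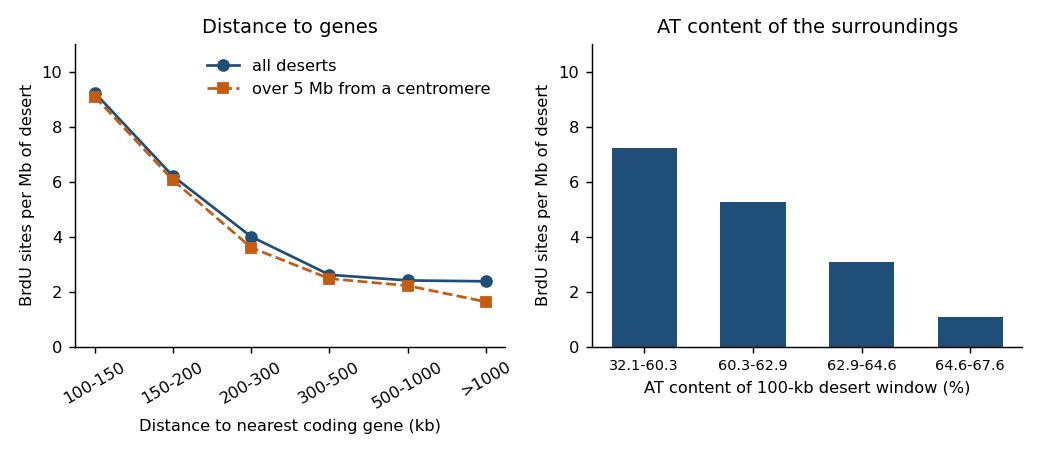
Left, BrdU sites per Mb of desert by distance to the nearest coding gene, for all deserts (circles) and for sequence over 5 Mb from a centromere (squares). Right, sites per Mb in 4 equal classes of 100-kb desert windows ordered by AT content, away from centromeres; density went from 9.23 to 2.38 with distance and from 7.24 to 1.08 with AT content.

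Desert peaks were unevenly shared out. Of 1322 deserts, 532 held at least 1 site and 790 held none, and the 58 deserts with the most sites held 50% of them in 53.4 Mb. Of the 143 deserts with at least 1 Mb of known sequence free of lncRNA genes, 24 held no site. The longest of these by that measure, 5.70 Mb between ANKRD30B and ROCK1 on chromosome 18, spanned the centromere, as did another between POTEA and SPIDR on chromosome 8 (3.41 Mb). By the same measure the longest desert with a site, 5.91 Mb between ZNF716 and ZNF722 on chromosome 7, held only 7. In contrast, the desert between KCNJ18 and WSB1 on chromosome 17 (4.93 Mb) held 34 sites. How well reads could be placed in deserts that span a centromere was not tested.

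The 3 deserts with the most sites were pericentromeric, and the next ones were not. The start of chromosome 21 up to TPTE, a phosphatase-like gene of the acrocentric short arm, held 160 peaks in 100 sites (30.9 per Mb). The start of chromosome 22 up to the olfactory receptor gene OR11H1 held 66 sites, and the desert between ZNF337 and DEFB115 on chromosome 20 held 56. The other two had no peak that was a tandem array. The desert between PSAT1 and TLE4 on chromosome 9 (chr9:78430095-79471771), flanked by an enzyme of serine synthesis and a Groucho-family corepressor, held 53 sites, at 54.2 sites per Mb. The desert between RFPL4B and MARCKS on chromosome 6 (chr6:112451296-113757343) held 38, at 34.2 per Mb. Density was counted over known sequence free of lncRNA genes. Among deserts with at least 1 Mb of such sequence, which the desert between PSAT1 and TLE4 fell short of (0.979 Mb), the one between RFPL4B and MARCKS was the densest, followed by the start of chromosome 21 and by the desert between CITED2 and NMBR on chromosome 6 (23 sites, 19.5 per Mb). A short desert, singled out after its values were seen, was denser than any of these. It spanned 141 kb between CENPF and KCNK2 on chromosome 1 (chr1:214764576-214905773) and held 26 sites, or 184 per Mb.

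Desert sites were clustered. The median distance to the nearest other site, inside or outside deserts, was 7.03 kb, with quartiles of 1.16 and 50.6 kb. Another site lay within 1 kb for 23.5% of the 2235 sites, within 10 kb for 54.9% and within 100 kb for 80.2%. Moving one site at a time through its own desert, with all others in place, put 31.2% of positions within 10 kb of another site. The share at the real positions was higher on 20 of 22 chromosomes (adjusted p = 0.00044, exact sign test). Chromosome 12, with 41.3% against 43.4%, and chromosome 19, with 0 of 6 sites against 2.67%, went the other way. The contrast was widest on chromosome 21 (83.5% against 15.2%). Near centromeres the share was 70.5% against 14.8%, and in the interior of chromosome arms 51.1% against 36.1%.

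Desert sites no more than 10 kb apart formed 1391 groups, of which 1035 were lone desert sites and 53 held 5 sites or more. Sites outside deserts were not counted in these groups. These 53 clusters held 443 sites, or 19.8% of all, and they differed by place. The 16 clusters within 5 Mb of a centromere held 156 sites, 80 of them tandem arrays. The 37 others held 287 sites, none of which was a tandem array. The largest clusters near centromeres were on the short arm of chromosome 21, with 29 sites beside TPTE (chr21:10706597-10738562) and 28 sites in a stretch of 42.05 kb farther out (chr21:7915842-7957888). In 28 and 27 of these sites at least 20% of pentamers belonged to the GGAAT repeat. Away from centromeres, 19 sites in 49.4 kb lay between ASAP1 and ADCY8 on chromosome 8, 16 sites in 60.6 kb lay between MSRB3 and HMGA2 on chromosome 12, and 15 sites in 23.4 kb lay between IFNE and MTAP on chromosome 9. The ASAP1 and HMGA2 clusters began only 100.09 and 100.47 kb from the gene. The list does not say whether the peaks of a cluster were called at the same time point.

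The share of overlapping peaks did not differ past the threshold from that near genes. Overlap with another listed peak, which can mark a place called more than once, was found for 1167 members (39.7%, 95% Clopper-Pearson interval 37.9 to 41.5) and for 41.2% of intergenic peaks near genes, higher on 10 and lower on 12 chromosomes (adjusted p = 0.91, exact sign test). Most sites, 1775 of 2235, were covered only once at any base, and 7 sites reached a depth of 5 peaks. Tandem arrays made up 8.96% of sites of depth 1, 14.1% of those of depth 2 and 42 of the 105 sites of depth 3. The deepest sites included one of 3605 bp between ADGRD1 and SFSWAP on chromosome 12 (chr12:131579552-131583156), an array of a 17-bp unit, and one between IRF8 and FOXF1 on chromosome 16 (chr16:86107754-86108906), with a 3-bp unit. IRF8 and FOXF1 encode developmental transcription factors. Members had a median width of 275.5 bp (quartiles 218 and 385) against 290 bp for intergenic peaks near genes.

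Desert peaks covered a narrow range of base composition. Their mean AT content was 60.4% ± 5.78 (SD over 2942 peaks), against 59.4% for placements (SD 8.52) and 59.4% for intergenic peaks near genes (SD 5.97). Relative to intergenic peaks near genes it was higher on 19 of 22 chromosomes (adjusted p = 0.0024, exact sign test). Relative to placements it was higher on 16 and did not pass the test (adjusted p = 0.082, exact sign test). More than 5 Mb from the centromeric blocks it was higher by 1.33 points, on 18 of 21 chromosomes (adjusted p = 0.0033, exact sign test). That setting was chosen after the data were seen. With a 200-kb gene limit the difference from placements was 0.0918 points, higher on 13 and lower on 8 chromosomes. Placed over every desert of the chromosome, positions were richer in AT than the peaks by 1.28 points. Between 50% and 70% AT lay 93.1% of members and 92.7% of intergenic peaks near genes but only 77.6% of placements. The members' tails were thin beside those of placements, as 1.63% of members and 8.88% of placements exceeded 70% AT, and 5.23% and 13.6% fell under 50%. Of intergenic peaks near genes, 0.235% exceeded 70% AT and 7.11% fell under 50%.

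**Figure D3:**
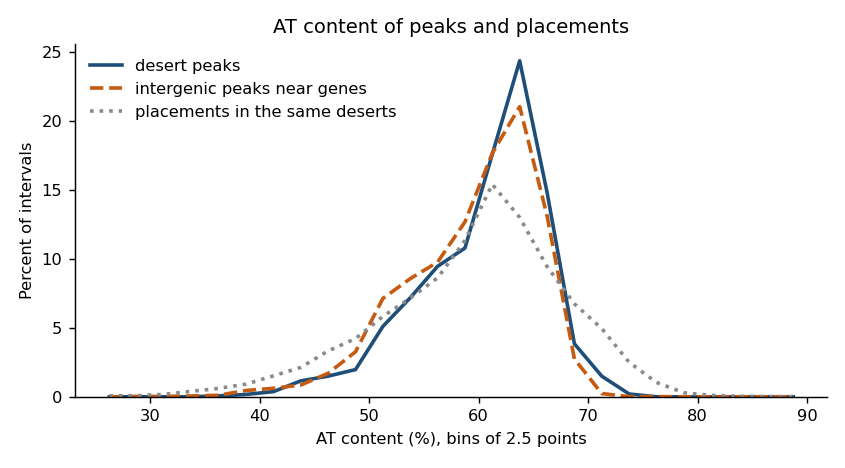
Distribution of AT content, in bins of 2.5 points, for desert peaks (solid), intergenic peaks near genes (dashed) and placements in the same deserts (dotted), as percent of each set. Both sets of peaks are narrower than the placements, with 1.63% of desert peaks and 8.88% of placements above 70% AT.

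Desert peaks were far richer in tandem arrays than the deserts around them. A peak was called an array when at least 70% of its bases matched the base a fixed step of up to 120 bp further on. By this measure 481 members at 284 sites were arrays (16.3%, 95% Clopper-Pearson interval 15.0 to 17.7), against 1.03% of placements. The share was higher than in placements on all 22 chromosomes (adjusted p = 5.25e-06, exact sign test). It ran from 4.90% on chromosome 8 to 49.3% on chromosome 21, with a median of 13.3% over chromosomes, while placements reached at most 3.66%. Steps of up to 200 bp, which take in the alpha-satellite monomer, gave 19.3% against 5.01%. With merged sites in place of peaks, 11.5% were arrays against 0.803% of placements (higher on 21 of 22 chromosomes, adjusted p = 6.03e-05, exact sign test). Intergenic sites near genes were then at 6.54%, and desert sites were higher on 14 chromosomes and lower on 8. Arrays were not particular to deserts. Intergenic peaks near genes were arrays in 11.7% of cases, and the members' share was higher than this on 13 and lower on 9 chromosomes (adjusted p = 0.64, exact sign test).

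**Figure D4:**
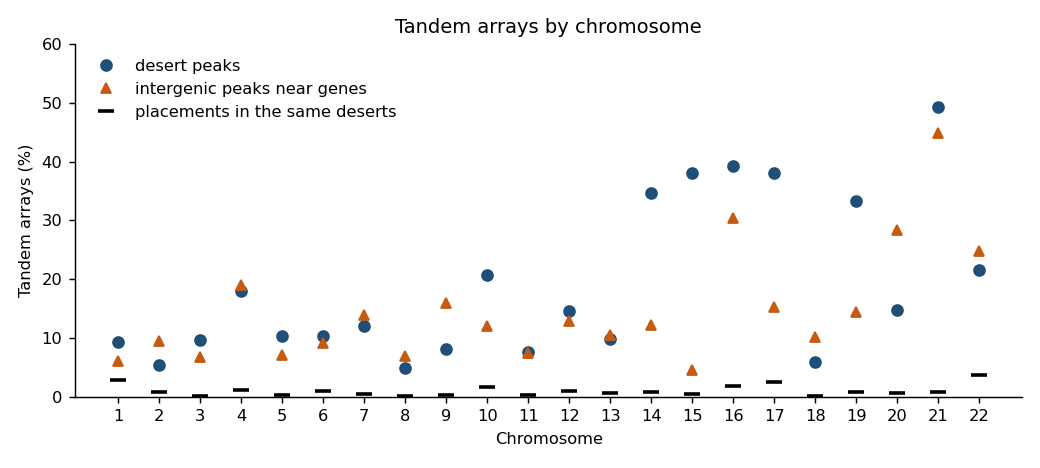
Percent of intervals that were tandem arrays on chromosomes 1 to 22, for desert peaks (circles), intergenic peaks near genes (triangles) and placements in the same deserts (dashes). Circles lie above the dashes on all 22 chromosomes, and above the triangles on 13.

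Arrays were most frequent towards both ends of the chromosome arms. Within 5 Mb of the centromeric alpha-satellite blocks 29.8% of 668 members were arrays (interval 26.3 to 33.4), against 14.7% of intergenic peaks near genes there and 2.04% of placements. In the outer 5 Mb of the chromosomes 36.9% of 401 members were arrays (32.2 to 41.8), against 36.0% of intergenic peaks near genes and 2.80% of placements. In the interior the share dropped to 7.15% of 1873 members (6.03 to 8.42), against 6.69% and 0.264%. Site density had the same order, with 10.3 sites per Mb in deserts near chromosome ends, 4.28 near centromeres and 3.69 in the interior. The centromeric blocks themselves, 70.3 Mb of desert, held 2.504 sites per Mb, and the remaining desert within 5 Mb of them held 7.20. These blocks were joined across gaps and were not alpha satellite alone, as 113 of their 235 members were rich in GGAAT.

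**Figure D5:**
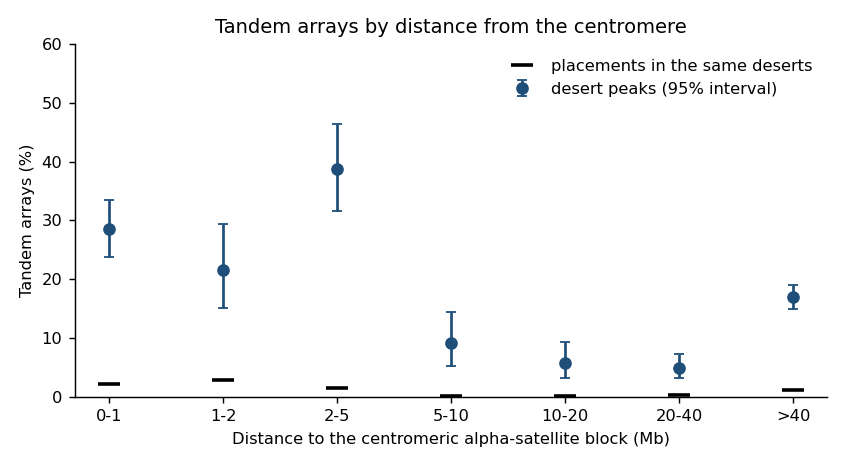
Percent of desert peaks that were tandem arrays by distance to the centromeric alpha-satellite block (circles, with 95% Clopper-Pearson intervals), beside placements in the same deserts (dashes). The share was 38.8% at 2 to 5 Mb and 4.94% at 20 to 40 Mb, and it was 16.97% beyond 40 Mb. Of the 178 peaks at 2 to 5 Mb, 40 lay in 1 cluster on chromosome 21 (chr21:7915842-7957888), where 25 of 28 sites were arrays. The intervals do not allow for such clustering.

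The repeat unit differed between these places. Units of up to 6 bp made up 221 of the 481 arrays, and 63.8% of them lay within 5 Mb of a centromeric block. The commonest was AATGG, the GGAAT satellite read from another base, with 92 peaks, followed by ACTCC with 26, AG with 23 and ATC with 16. Units over 6 bp made up the other 260 arrays. Of these, 39.6% lay in the outer 5 Mb of chromosomes and 22.3% near centromeres. The median unit was 10 bp in members and 23 bp in intergenic peaks near genes. Units of 21 to 60 bp, minisatellites such as those printed above, were found in 3.67% of members, 4.26% of intergenic peaks near genes and 0.481% of placements.

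The GGAAT satellite, the unit of human satellites 2 and 3, was then counted directly. In 203 members (6.90%, interval 6.01 to 7.88) at least 20% of pentamers were GGAAT or one of the 3 rotations marked above, on one strand, against 1.20% of placements and 0.580% of intergenic peaks near genes. This measure was chosen after the arrays had been seen, and it got no test. Of the 203, 197 lay within 5 Mb of a centromeric block, where they were 29.5% of all members against 5.07% of placements. Chromosome 21 held 94, chromosome 17 held 32, chromosome 10 held 21, chromosome 22 held 14 and chromosome 16 held 13, with at most 9 on any other. Without chromosome 21 the share was 4.00%, and the share of tandem arrays was 13.8%. Another listed peak overlapped 47.8% of them and 39.1% of the remaining members.

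Perfect short tandem repeat tracts of at least 20 bp occurred in 319 members (10.8%, interval 9.742 to 12.02), against 4.12% of placements and 5.82% of intergenic peaks near genes. Relative to placements the share was higher on 16 of 22 chromosomes and did not pass the test (adjusted p = 0.082, exact sign test). Relative to intergenic peaks near genes it was higher on 11 and lower on 11. Without chromosome 21, where 49.3% of members held a tract, the share was 7.81%. Leaving out sequence within 5 Mb of the centromeric blocks, it was 5.72%, against 4.23% of placements and 5.51% of intergenic peaks near genes. AATGG tracts were in 4.21% of members and 0.321% of intergenic peaks near genes, whereas ATCC tracts were in 0.884% and 1.57%. AC tracts were in 0.918% and 1.07%, and in 0.493% of placements. The hexamer TGTGTG was the most frequent in members, at 4.98 per 1000 hexamers against 0.864 in placements, and it was at 6.25 away from centromeres. AATGGA, from the satellite, was at 3.93 over all members and at 1.04 away from centromeres.

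Repeated sequence can recur elsewhere in the genome, where short reads cannot be placed with certainty. The count used here also took in copies inside the peak itself, so it does not tell an array's own repeats from copies elsewhere. More than 50% of the 31-mers of a peak were found again on the autosomes for 21.2% of members, 14.3% of intergenic peaks near genes and 24.2% of placements. This held for 20.7% of GGAAT-rich members, for 40.3% of arrays and for 17.5% of the 2303 members with no repeat of the kinds above. Near centromeres it held for 52.8% of members and 70.1% of placements. The part of recurring sequence in the calls was not tested. Leaving out sequence within 5 Mb of the centromeric blocks, 12.4% of members were arrays against 0.743% of placements (higher on 21 of 21 chromosomes, adjusted p = 5.25e-06, exact sign test). In all deserts, near centromeres or not, the 2303 members with no repeat of the kinds above had a mean AT content of 61.4%.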

How the data were processed

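The authors had aligned BrdU-Seq reads to hg38 and called peaks with MACS2 against Input at each time point. The deposited table holds chromosome, start and end and no count, score or signal. The submitters' processing notes for the series name Bowtie2 2.3.3.1, SAMtools 1.4 and MACS2 2.1.0. Starts were read as 0-based and are printed 1-based. The 585 peaks on X and Y were left out, and depth per library is not known from the list. Genes came from GENCODE release 44, sequence from hg38. Intervals, arrays, repeat tracts and AT content were computed in Python 3.11.15 (NumPy 2.4.6, Numba 0.67.0, SciPy 1.17.1), with interval steps checked against bedtools 2.31.1. Repeat callers were tested on simulated data, where they found 100% of 200 planted arrays and tracts and 0% in unrepeated sequence. The planted arrays were little diverged, with units over 6 bp, in random sequence. The test therefore gives no error rate for diverged arrays, short-unit arrays or AT-rich sequence. Placements numbered 294200. Centromeric blocks were found from alpha-satellite periodicity in hg38, joining windows up to 500 kb apart, so that they can hold other sequence. Sign tests used chromosomes with at least 5 desert sites. Named deserts were the 5 with the most sites, the 3 densest of at least 1 Mb and the 3 longest with and without a site, with length counted as known sequence free of lncRNA genes. Sequences followed a like rule, with chromosome 8 left out. A named desert and a sequence that these rules pick are not reported here. The members, lists and tests were chosen with earlier results of these data known. Alternatives covered the gene limit, barred gene types, placement range, thresholds, merged sites and chromosome regions.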

Additional observations from a re-analysis of the deposited data

How the results depend on the processing

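The 11 results were recomputed under 112 alternatives, of which 11, leaving out the 5 Mb to either side of the centromeric block, were chosen after seeing the data. In 100 cases direction and side of the threshold held, 8 newly passed the threshold, none lost it and 4 changed sign. The mean AT content of members minus that of placements passed the test at 1.74 points with a 50-kb limit, 1.01 points with lncRNA genes not barred, 1.00 point with every annotated gene barred, 1.03 points against positions within 500 kb, and 1.33 points without the sequence near centromeres. With a 200-kb limit this difference shrank to 0.0918 points, higher on 13 and lower on 8 chromosomes, and did not pass. It changed sign, to -1.28 points, against every desert of the chromosome, where surrounding AT content passed the test at -2.45 points. Tracts of at least 12 bp passed against placements with a difference of 12.9 points. The share of peaks with another within 1 kb passed at -4.42 points relative to intergenic peaks near genes. Overlap changed sign without the outer 5 Mb of chromosomes (0.315 points, though lower on 15 of 22) and against all other peaks (1.19 points). The excess of arrays over intergenic peaks near genes changed sign at an 80% match (-0.677 points), and it was 0.876 points without sequence near centromeres. In none of these 4 did the sign test pass. No paired analysis was possible because no peak is assigned to a replicate or sample. Limits are that the list has no signal, pools the calls and gives no replicate, so that chromosomes were the only units over which a difference could be counted.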
